A study of Homo sapiens with 6 samples.

Results

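The genes described here are the NF-kB subunits NFKB1, NFKB2, RELA and RELB, the IkB family members NFKBIA, NFKBIB, NFKBIE and NFKBIZ, and the feedback genes TNFAIP3 and IER3. These 10 genes were chosen by name, with earlier results of these data known, and matched by symbol among 60604 genes of the count file. All 10 passed the filter on low counts, which 15022 genes passed. The RNA came from MIA PaCa-2, a long established line of human pancreatic carcinoma cells whose genotype is labelled wild type. Each group held 3 libraries. One group was treated with BP (black phosphorus, a layered form of the element) at 12.5 µg/ml, and the other with the same dose of BP plus 10 mg/ml of Huaier, which is extracted from a medicinal fungus. Both groups therefore received BP, cells without it were not analysed here, and how long the cells were treated is not stated in the sources used here. The comparison asks what adding Huaier to BP did to these transcripts. The labels do not say whether libraries in a group came from separate cultures, and the p-values thus reflect library spread that may be technical.

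NF-kB proteins are dimers of Rel family subunits that bind DNA at short sites known as kappaB sites. In resting cells IkB proteins hold the dimers in the cytoplasm. Receptors of the TNF, interleukin-1 and Toll-like families activate IkB kinase (IKK), which marks IkB for degradation and frees the dimers. In a second route, the kinase NIK causes the NFKB2 precursor p100 to be processed to p52, which pairs with RELB. Several of the genes that NF-kB switches on, among them NFKBIA and TNFAIP3, encode inhibitors of the pathway and close a feedback loop. NF-kB activity is a known feature of pancreatic carcinoma cells.

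Letters of kappaB sites were looked for in the promoters of the members because the family is known to act on its own genes. RefSeq (GRCh38.p14) gave 13 promoter windows for 7 of the 10 members, each from 250 bases before to 50 bases after a transcript start. RELB, NFKBIE and IER3 had no entry. The kappaB consensus of 10 letters was searched on both strands, and matches on opposite strands can overlap. An exact match lay in 8 of the 13 windows and in 6 of the 7 members, the exception being RELA. Across all RefSeq windows, 5.91% of 35116, and 7.09% of 27305 genes, held one. With 1 mismatch allowed, 9 of the 13 member windows and 50.2% of all windows held a match. The 6 stretches shown here carry the matches that lie outside exons of the deposited annotation, or extend 1 base into one for NFKB2. The first 3 belong to members that rose with Huaier and the last 3 to members that did not pass the test. Each is read 5′ to 3′ on the strand of its gene, and the capitals mark the matches.
NFKBIA, chr14:35404750-35404999, minus strand: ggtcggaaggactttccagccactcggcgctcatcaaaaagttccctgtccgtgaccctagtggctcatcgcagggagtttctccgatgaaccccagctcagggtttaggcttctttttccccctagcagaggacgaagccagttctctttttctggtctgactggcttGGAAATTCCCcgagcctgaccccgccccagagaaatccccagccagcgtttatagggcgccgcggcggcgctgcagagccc
NFKB2, chr10:102395455-102395693, plus strand: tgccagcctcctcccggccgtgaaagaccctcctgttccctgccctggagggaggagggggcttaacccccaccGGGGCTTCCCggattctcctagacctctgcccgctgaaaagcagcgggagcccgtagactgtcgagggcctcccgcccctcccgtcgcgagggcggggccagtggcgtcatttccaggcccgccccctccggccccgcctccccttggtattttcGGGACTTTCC
NFKBIB, chr19:38899740-38899951, plus strand: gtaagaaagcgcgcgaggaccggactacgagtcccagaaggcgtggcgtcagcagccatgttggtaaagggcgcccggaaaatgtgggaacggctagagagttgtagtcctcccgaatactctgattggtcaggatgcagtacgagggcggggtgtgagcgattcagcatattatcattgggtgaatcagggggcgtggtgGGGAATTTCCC
NFKB1, chr4:102501109-102501330, plus strand: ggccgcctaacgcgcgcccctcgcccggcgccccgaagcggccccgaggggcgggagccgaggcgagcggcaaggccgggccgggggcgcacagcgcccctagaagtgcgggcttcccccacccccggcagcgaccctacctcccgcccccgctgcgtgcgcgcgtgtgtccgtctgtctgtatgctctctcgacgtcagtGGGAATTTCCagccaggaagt
NFKBIZ, chr3:101827740-101827989, plus strand: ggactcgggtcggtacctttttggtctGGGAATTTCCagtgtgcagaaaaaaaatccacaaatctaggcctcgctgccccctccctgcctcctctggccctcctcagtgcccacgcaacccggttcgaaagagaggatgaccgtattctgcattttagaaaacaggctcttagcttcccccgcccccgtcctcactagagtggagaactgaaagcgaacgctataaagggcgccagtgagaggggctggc
TNFAIP3, chr6:137867009-137867213, plus strand: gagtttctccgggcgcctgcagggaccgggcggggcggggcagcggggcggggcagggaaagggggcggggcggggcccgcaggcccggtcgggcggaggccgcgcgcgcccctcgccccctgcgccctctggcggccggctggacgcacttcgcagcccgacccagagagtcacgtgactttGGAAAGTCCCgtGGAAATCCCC

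The letters GGGAATTTCC stood in NFKB1, NFKBIB and NFKBIZ, and on the opposite strand in NFKBIA. TNFAIP3 held a pair of matches 58 to 67 and 46 to 55 bases before its start. NFKB2 held matches in 2 of its 3 windows, at 12 to 21 bases before the start in the third. A match is a run of letters and no evidence of binding, and such runs stood in members that rose and in members that did not.

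With Huaier added, 7 of the 10 members rose and 0 fell, where 14.4% of all tested genes were higher and 15.0% lower (edgeR quasi-likelihood test at a Benjamini-Hochberg adjusted p under 0.05 over all tested genes). Those 7 were IER3, NFKBIB, RELB, NFKB2, NFKBIE, NFKBIA and RELA, in order of their change. NFKB1, NFKBIZ and TNFAIP3 did not pass. Because the members were chosen with earlier results of these data known, the contrast with all tested genes is a description and no test. No member had a lower level even at an unadjusted p under 0.05, with a count of 0, and DESeq2 and limma-voom also gave 7 higher and 0 lower. The median log2 fold change was 0.80 over the members and -0.02 over all tested genes. For the same 7 members all 3 BP+Huaier libraries lay above all 3 BP libraries, which held for 21.9% of tested genes. Groups were apart in either direction for 46.8% of tested genes, and 24.9% were apart in the lower direction, where 0 members were. RNA from whole cultures was measured, so a change in some of the cells and a change in RNA per cell cannot be told apart.

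**Figure D1:**
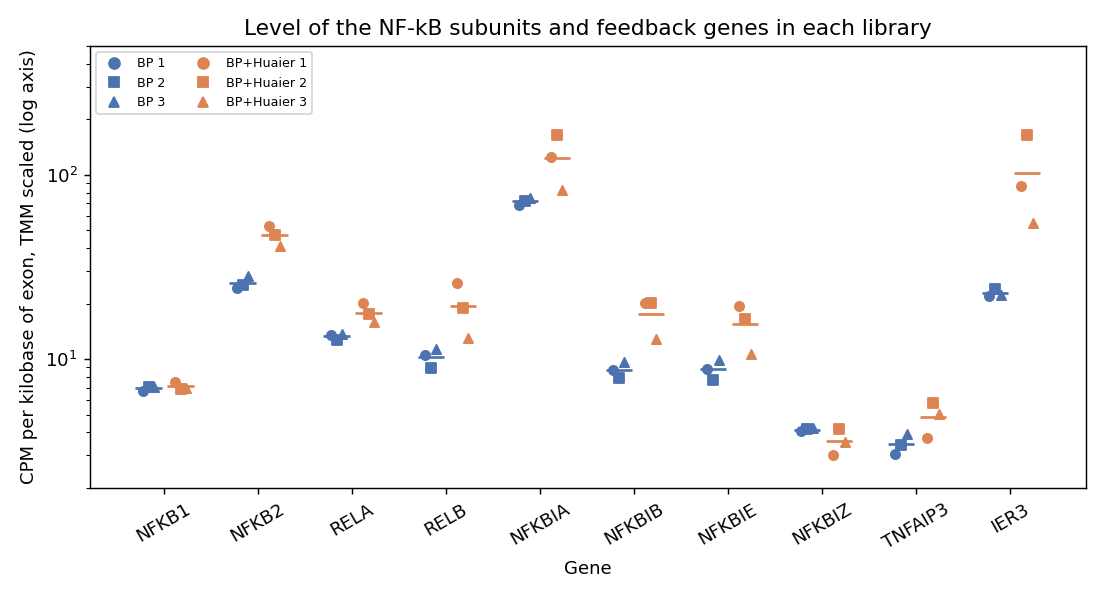
Level of each member in each library, in CPM per kilobase of exon on a log axis, with BP in blue, BP+Huaier in orange and a bar at each group mean. NFKBIA and IER3 had the highest means with Huaier (124 and 102 CPM per kilobase), and NFKB1 lay at about the same level in both groups.

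How the libraries differ bears on all of these values. Total counts on genes were 15657593 to 17036565 per library, and 3 counts corresponded to between 0.160 and 0.222 CPM, far under the level of each member. Library scaling factors (TMM) were 1.08 to 1.11 for BP, 0.85 and 0.86 for BP+Huaier 1 and 2 and 1.04 for BP+Huaier 3. The first principal component held 72.4% of the variance and placed BP+Huaier 3 at 11.5, between BP+Huaier 1 and 2 (65.1 and 66.0) and the BP libraries (-50.5 to -43.4). Without BP+Huaier 3, 59.8% of tested genes were called in place of 29.3%, and without any 1 of the BP libraries 11.2% to 13.4%. Scaling by library size alone moved the median of all genes to -0.28, and 26.2% of its calls were higher in place of 49.0%. As for cell identity, KRT8, KRT18, KRT19 and VIM were at 221 to 3493 CPM in the BP group, whereas the epithelial markers EPCAM, CDH1 and KRT7 had group means of at most 0.18 CPM. KRT18 and KRT19 rose with Huaier, by 0.78 and 1.04 on the log2 scale. Acinar and islet markers were at most 0.11 CPM in sum, and PTPRC, CD3E, DCN and LUM had 0 counts. The summed leukocyte markers were at 40.9 to 45.5 CPM in BP and 21.3 to 34.1 CPM in BP+Huaier, nearly all of it CD14. Endothelial markers summed to 17.6 to 21.1 CPM and 12.1 to 14.7 CPM, mostly CDH5, which was lower with Huaier (log2 fold change -0.58, edgeR adjusted p = 0.030). Fibroblast markers summed to 495 to 550 CPM and 379 to 483 CPM, mostly COL1A2, which did not pass. COL1A1 of the same list rose by 2.14 on the log2 scale, with means of 1.34 CPM in BP and 5.92 CPM in BP+Huaier (edgeR adjusted p = 0.00089). The part of these markers in the results was not tested. The 13 mitochondrially encoded genes had 0 counts in every library, so they give no measure of RNA quality.

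Among the subunits, NFKB2, RELB and RELA rose and NFKB1 was not past the threshold. NFKB2 (ENSG00000077150.20, GRCh38 chromosome 10, 102394110 to 102402524) encodes p100, the precursor of p52 and itself an inhibitor of RELB. Its levels were 114, 119 and 132 CPM in the BP libraries and 249, 223 and 193 CPM in BP+Huaier 1, 2 and 3. Every BP+Huaier library was above every BP library by more than the spread within either group. NFKB2 rose 1.82-fold, a log2 fold change of 0.86 ± 0.15 (SE) with an edgeR adjusted p = 0.0041. NFKB2 passed the test under all 16 alternatives, with log2 fold changes from 0.59 to 0.97.

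NFKB1 (ENSG00000109320.13, chromosome 4, 102501331 to 102617302) encodes p105, the precursor of p50. It was at 42.5, 45.0 and 44.8 CPM with BP and at 47.9, 43.9 and 44.3 CPM with Huaier added. The groups overlapped, and the log2 fold change of 0.04 ± 0.13 did not pass (edgeR adjusted p = 0.83). Its sign depended on the scaling, since it was -0.22 with library size alone, where the median of all tested genes was -0.28. The interval of 1 SE around the value covers both directions.

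RELB (ENSG00000104856.14, chromosome 19, 45001449 to 45038198), the partner of p52, went from 31.6, 27.1 and 34.4 CPM to 78.0, 57.3 and 39.3 CPM. BP+Huaier 1 was the highest library and BP+Huaier 3 only 1.14 times above the highest BP library. The log2 fold change was 0.91 ± 0.24, or 1.87-fold (edgeR adjusted p = 0.021, range 4.6e-07 to 0.0997 over 16 alternatives). The call was lost without BP 1, 2 or 3 (edgeR adjusted p = 0.071, 0.0997 and 0.059), without BP+Huaier 2 (0.069) and with library size alone (0.054). Without BP 1, 2 or 3 the log2 fold change of RELB was 0.93, 0.82 and 1.02.

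RELA (ENSG00000173039.19, chromosome 11, 65653597 to 65663090) encodes p65, the main activating subunit of the dimer with p50. Its levels were 74.0, 69.1 and 74.5 CPM with BP and 109, 95.4 and 86.5 CPM with Huaier added. The groups did not overlap, but the change was the smallest of the 7, with a log2 fold change of 0.42 ± 0.14, or 1.34-fold (edgeR adjusted p = 0.045, range 5.3e-04 to 0.34 over 16 alternatives). It was not called without BP 1, 2 or 3 (edgeR adjusted p = 0.15, 0.17 and 0.12), where the log2 fold change was 0.44, 0.39 and 0.47. Dropping BP+Huaier 1 or 2 also ended the call (edgeR adjusted p = 0.11 and 0.12). The same held with genes of at least 5 CPM (0.076), with library size alone (0.34) and with the replicate number as a block (0.12).

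Ratios taken within a library do not depend on its scaling factor, though they can depend on GC content where the genes differ in it. Per kilobase of exon, NFKB2 was 3.63, 3.57 and 3.98 times the level of NFKB1 in the BP libraries and 7.03, 6.87 and 5.89 times in BP+Huaier. The groups did not overlap, and NFKB2 made up 45.9 ± 1.5% of the summed level of the 4 subunits with BP and 51.8 ± 1.9% with Huaier (SD, n = 3). RELB was at 0.77, 0.71 and 0.84 of the level of RELA with BP. With Huaier this ratio was 1.29, 1.09 and 0.82, so that BP+Huaier 3 lay within the BP range while the other libraries lay above it. These ratios combine members chosen by name and carry no test. Once GC content and length were accounted for, the log2 fold change of NFKB2 exceeded that of NFKB1 by 0.48 in place of 0.82, and that of RELB exceeded that of RELA by 0.28 in place of 0.49.

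**Figure D2:**
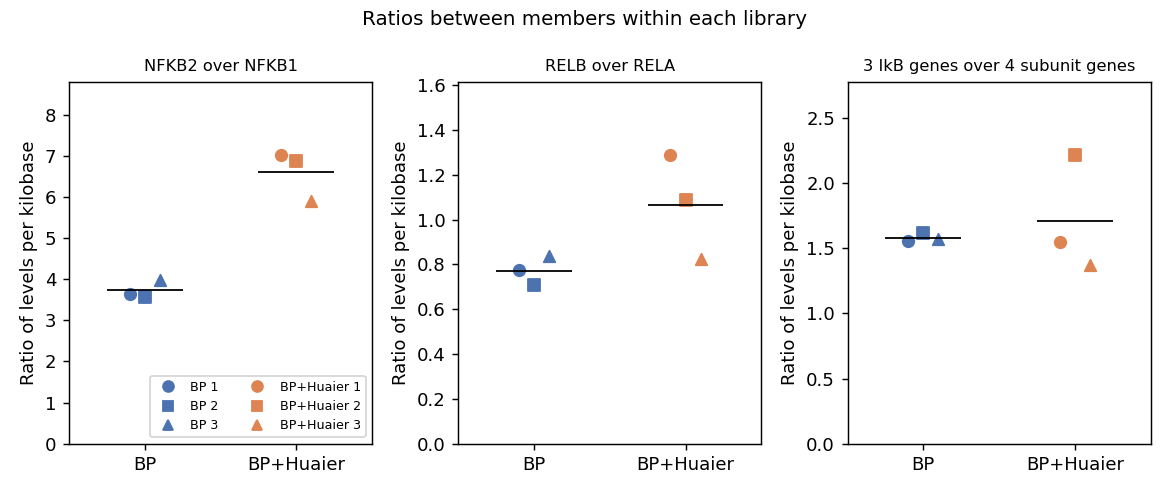
Ratios between members within each library, from levels per kilobase of exon, with black bars at the group means. The NFKB2 to NFKB1 ratio separated the groups (3.57 to 3.98 against 5.89 to 7.03), while RELB to RELA and the ratio of the 3 IkB genes to the 4 subunit genes overlapped.

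All 3 classical IkB genes rose. NFKBIA (ENSG00000100906.11, chromosome 14, 35401513 to 35404749) encodes IkB-alpha, the inhibitor that is resynthesised after each round of NF-kB activity. It was at 162, 170 and 178 CPM with BP and at 296, 391 and 195 CPM with Huaier added. BP+Huaier 2 was the highest library, and BP+Huaier 3 exceeded the highest BP library by 1.10 times. The log2 fold change was 0.79 ± 0.23, or 1.73-fold (edgeR adjusted p = 0.031, range 6.7e-09 to 0.12 over 16 alternatives). Without BP 1, 2 or 3 the NFKBIA call was lost (edgeR adjusted p = 0.11, 0.11 and 0.087). The log2 fold change was then 0.76, 0.80 and 0.86. Without BP+Huaier 2 the log2 fold change was 0.55, and the call was lost (edgeR adjusted p = 0.12). It was also lost with library size alone, at 0.50 (edgeR adjusted p = 0.069), and with the replicate number as a block (0.053).

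NFKBIB (ENSG00000104825.17, chromosome 19, 38899700 to 38908893) encodes IkB-beta, which binds many of the same dimers. Its levels were 20.3, 18.3 and 22.4 CPM in BP and 46.5, 46.7 and 29.7 CPM in BP+Huaier. All BP+Huaier libraries were above all BP libraries, BP+Huaier 3 least so. NFKBIB rose 2.01-fold, or 1.01 ± 0.20 on the log2 scale (edgeR adjusted p = 0.0075), and passed the test under all 16 alternatives, from 0.72 to 1.21. Its exons share 40 bases with SIRT2 on the opposite strand, 1.7% of its length. SIRT2 had 8622 counts over all libraries against 2907 for NFKBIB.

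NFKBIE (ENSG00000146232.17, chromosome 6, 44258166 to 44265788) encodes IkB-epsilon, a slower feedback inhibitor. The BP libraries held 22.8, 19.8 and 25.6 CPM and the BP+Huaier libraries 49.8, 42.6 and 27.4 CPM. Here BP+Huaier 3 lay only 1.07 times above BP 3. NFKBIE rose 1.75-fold, or 0.81 ± 0.22 on the log2 scale (edgeR adjusted p = 0.026, range 6.5e-07 to 0.12 over 16 alternatives). Leaving out BP 1, 2 or 3 lost the call (edgeR adjusted p = 0.087, 0.12 and 0.061), and so did leaving out BP+Huaier 1 or 2 (0.058 and 0.094) and scaling by library size alone, where the log2 fold change was 0.52 (0.072).

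Summed per kilobase, these 3 IkB genes were at 1.56, 1.61 and 1.57 times the 4 subunit genes with BP. The corresponding ratios with Huaier were 1.55, 2.22 and 1.37. The groups overlapped in this ratio, with BP+Huaier 2 above and BP+Huaier 3 below the BP range. NFKBIA alone made up 80.3 ± 1.6% of the summed level of the 3 IkB genes with BP and 78.6 ± 3.0% with Huaier (SD, n = 3).

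NFKBIZ (ENSG00000144802.11, chromosome 3, 101827991 to 101861022) encodes IkB-zeta, a nuclear family member that works with p50 as a co-regulator. It was at 23.9, 24.6 and 24.8 CPM with BP and at 17.9, 24.5 and 21.0 CPM with Huaier, and the groups overlapped. Its log2 fold change of -0.21 ± 0.16 was not past the threshold (edgeR adjusted p = 0.33), nor under any of the 16 alternatives (-0.47 to -0.04). Its exons share 194 bases, 3.3% of its length, with NXPE3 on the same strand.

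TNFAIP3 (ENSG00000118503.15, chromosome 6, 137867214 to 137883312) encodes A20, a ubiquitin-editing enzyme that shuts off signalling upstream of IKK. With BP it was at 15.4, 17.1 and 19.6 CPM, and with Huaier at 18.8, 28.9 and 25.2 CPM. BP+Huaier 1 lay below BP 3 while the other libraries lay above. The log2 fold change was 0.48 ± 0.19 (edgeR adjusted p = 0.083, range 1.3e-04 to 0.44 over 16 alternatives). It passed without BP+Huaier 1 (edgeR adjusted p = 0.024), without BP+Huaier 3 (0.031), with no filter on low counts (0.049), once the dependence on GC content and length was taken out (0.027) and with a weight per library in limma-voom (1.3e-04).

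IER3 changed most. IER3 (ENSG00000137331.12, chromosome 6, 30743199 to 30744548), also known as IEX-1, is an immediate early gene induced by NF-kB and by stress and is known to affect cell survival. Its levels were 29.7, 32.5 and 30.1 CPM with BP and 117, 223 and 73.7 CPM with Huaier added. The lowest BP+Huaier library, BP+Huaier 3, was 2.27 times the highest BP library, and BP+Huaier 2 was the highest. IER3 rose 4.49-fold, or 2.17 ± 0.35 on the log2 scale (edgeR adjusted p = 0.0035), and 65 of the 15022 tested genes had a larger log2 fold change. It passed the test under all 16 alternatives, from 1.65 without BP+Huaier 2 to 2.63 with a weight per library. The exons of IER3 share 359 bases, 26.6% of its length, with IER3-AS1 on the opposite strand, which had 14 counts over all libraries against 7634 for IER3. The strand setting of the counting is unknown, so the reads of such pairs cannot be told apart in full.

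**Figure D3:**
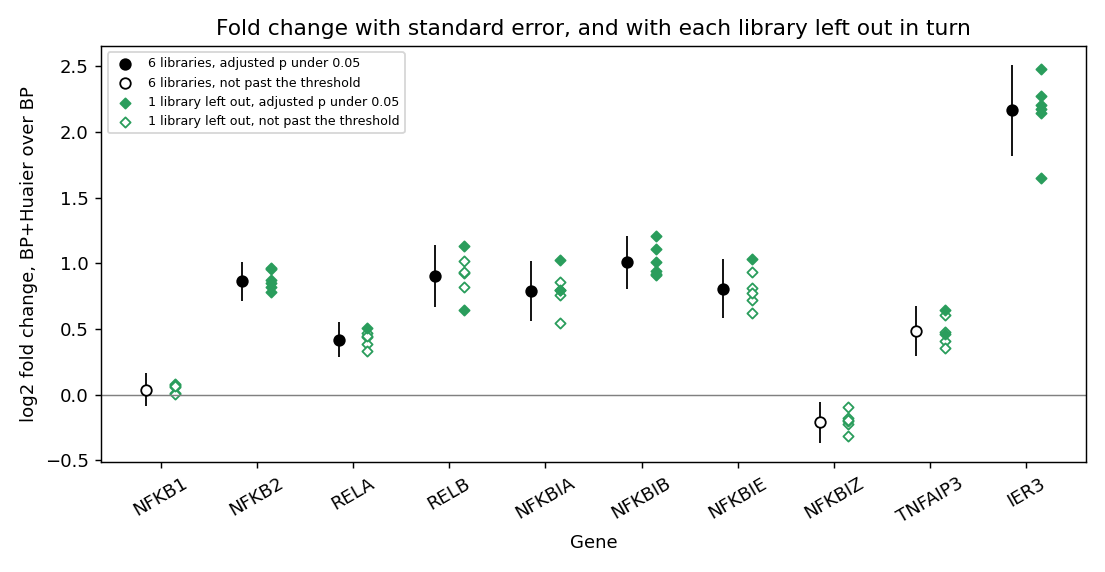
Log2 fold change of each member, BP+Huaier over BP, with its standard error (circles) and with each of the 6 libraries left out in turn (green diamonds), filled where the adjusted p was under 0.05. NFKB2, NFKBIB and IER3 stayed filled throughout, and RELA, RELB, NFKBIA and NFKBIE each had open diamonds.

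Of the 7 calls, those of NFKB2, NFKBIB and IER3 held in every alternative. When BP 1, 2 or 3 was dropped, 3 members were called higher each time, and dropping BP+Huaier 1, 2 or 3 left 6, 3 or 8. The background moved as well, from 11.2% to 59.8% of tested genes called.

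In order of level per kilobase, no member was more than 1 rank apart between the groups. The length used is that of a gene's annotated exons, not of the transcripts expressed, so levels of different genes compare only roughly. In the BP group the means were 71.6 CPM per kilobase for NFKBIA, 25.9 for NFKB2, 22.8 for IER3, 13.3 for RELA, 10.3 for RELB, 8.82 for NFKBIE, 8.76 for NFKBIB, 6.94 for NFKB1, 4.14 for NFKBIZ and 3.46 for TNFAIP3. Neighbours overlapped between libraries for RELB with NFKBIE and for NFKBIE with NFKBIB. With Huaier, NFKBIA was at 124 and IER3 at 102 CPM per kilobase, and their libraries overlapped. NFKB2 followed at 47.1, clear of RELB, RELA, NFKBIB and NFKBIE at 19.3, 17.8, 17.6 and 15.5, each of which overlapped the next. NFKB1 at 7.13 stood apart from TNFAIP3 at 4.84 and NFKBIZ at 3.58, which overlapped.

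Within the BP+Huaier group the members did not follow 1 pattern. NFKB1, NFKB2, RELA, RELB and NFKBIE were highest in BP+Huaier 1. NFKBIA, NFKBIB, NFKBIZ, TNFAIP3 and IER3 were highest in BP+Huaier 2, NFKBIB by a margin smaller than its spread. The coefficient of variation over the BP+Huaier libraries ran from 4.83% for NFKB1 to 55.6% for IER3, against 1.95% to 12.8% over the BP libraries. RELB and NFKBIE were the closest pair of members, with a root mean square difference of 0.08 between their centred log2 CPM over the 6 libraries. NFKBIE was the 39th closest of all genes of at least 5 CPM to RELB. The 5 genes closest to NFKBIA by the same measure were UBB at 0.07, ABTB2 at 0.09, RGS3 at 0.09, CORO1A at 0.10 and CALR at 0.10. UBB encodes a polyubiquitin precursor and CALR the endoplasmic reticulum chaperone calreticulin. UBB went from 388 ± 14.3 to 671 ± 189 CPM and CALR from 1247 ± 70.8 to 2183 ± 547 CPM (SD, n = 3).

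GC content differed between the members that passed and those that did not. The longest transcripts of the 7 called members had 53.1% to 65.4% GC, and those of NFKBIZ, TNFAIP3 and NFKB1 had 46.2%, 49.5% and 50.1%. The libraries themselves differed along GC content. Over 14896 genes, which share each library's depth and are no replicates, r between GC content and a library's log2 ratio to the mean of BP was 0.39, 0.27 and 0.03 for BP+Huaier 1, 2 and 3. For BP 1, 2 and 3, each set against the remaining BP libraries, r was 0.03, -0.44 and 0.42. A spline on GC content and exon length was then fitted and subtracted per library. The median of all genes moved from -0.02 to 0.13, 63.0% of calls were higher, and 41.3% of genes were called. The members' log2 fold changes were then 2.11 for IER3, 0.84 for NFKBIB, 0.82 for NFKBIA, 0.61 for NFKBIE, 0.61 for NFKB2, 0.59 for RELB, 0.55 for TNFAIP3 and 0.30 for RELA, and these 8 passed. NFKB1 at 0.13 and NFKBIZ at -0.04 did not (edgeR adjusted p = 0.33 and 0.82). The values of RELB, NFKB2 and NFKBIZ moved by more than their standard errors in this step (-0.32, -0.26 and 0.17), and those of the other 7 members by less. These moves include the shift of the median of all genes from -0.02 to 0.13. Relative to that median, members that moved down moved further, and NFKBIZ moved less.

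**Figure D4:**
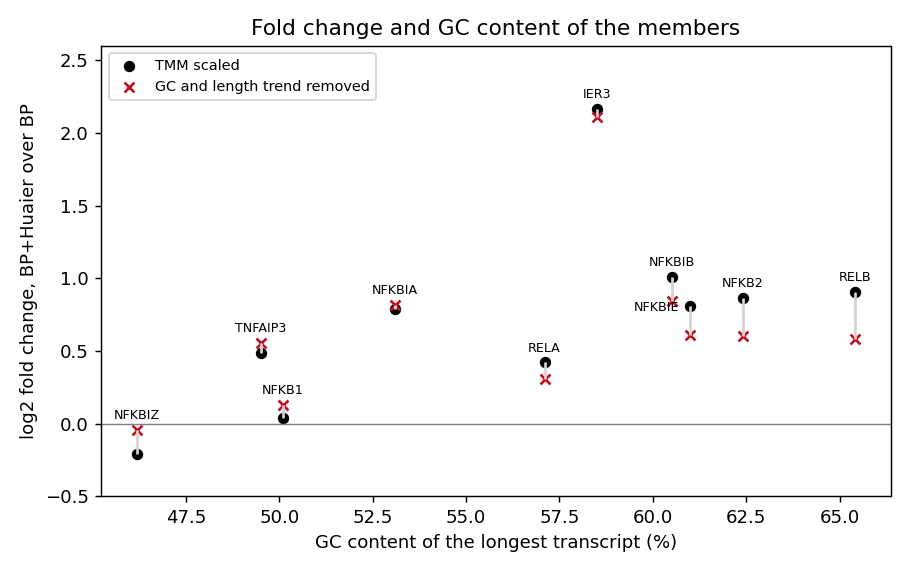
Log2 fold change of each member against the GC content of its longest transcript, as measured (black) and with the dependence on GC content and length taken out per library (red crosses). The GC-rich members RELB, NFKB2, NFKBIE and NFKBIB moved down to between 0.59 and 0.84, whereas IER3 and NFKBIA stayed near 2.1 and 0.8. The median of all genes moved up from -0.02 to 0.13 in the same step.

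The other genes of the pathway went in both directions. Of 115 further genes in 7 lists, 96 were tested, 27 rose, 11 fell and 58 did not pass, with a median log2 fold change of 0.09. These are 39.6% called, where 29.3% of all tested genes were (14.4% higher and 15.0% lower). By list, 28.6% of the further Rel and IkB proteins were called. Kinases, adaptors and ubiquitin ligases, and further inhibitors had 33.3% each, near the share of all genes. Receptors had 64.3%, ligands 40% and target genes 42.1% of those tested. No list carries a test of its own.

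Among 7 further Rel and IkB proteins, 2 rose and 0 fell (edgeR, also 0 at an unadjusted p under 0.05 and 0 by DESeq2), with a median log2 fold change of 0.31. BCL3, a nuclear IkB protein that works with p50 and p52, rose 2.62-fold, from 58.4 ± 2.1 to 153 ± 45.5 CPM (SD, n = 3; edgeR adjusted p = 0.0032). NKRF, a repressor of NF-kB target genes, rose 1.38-fold. REL, the c-Rel subunit, averaged 9.14 ± 0.75 CPM with BP and 7.42 ± 4.26 CPM with Huaier, not past the threshold (edgeR adjusted p = 0.56).

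Of 12 kinases 2 rose and 2 fell, with a median of -0.16. That is 33.3% called, near the 29.3% of all tested genes. MAP3K14, which encodes NIK, went from 36.03 ± 0.71 to 62.5 ± 8.06 CPM, a 1.73-fold rise (edgeR adjusted p = 0.0052), and MAP3K3, a kinase that can activate IKK, rose 1.69-fold. IKBKE, an IKK-related kinase, fell 2.87-fold, from 12.3 ± 0.34 to 4.30 ± 1.06 CPM (edgeR adjusted p = 0.0020). IKBKB, the catalytic subunit IKK-beta of the classical route, fell 1.67-fold, from 37.9 ± 2.39 to 22.7 ± 7.02 CPM (edgeR adjusted p = 0.029). CHUK, which encodes IKK-alpha, averaged 30.3 ± 3.60 CPM with BP and 27.1 ± 6.77 CPM with Huaier, not past the threshold (edgeR adjusted p = 0.56).

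Of 24 adaptors and ubiquitin ligases 5 rose, 3 fell and 16 did not pass, with a median of -0.19. IRAK2, an adaptor kinase of interleukin-1 and Toll-like receptors, rose 2.09-fold, CARD10, a scaffold that recruits BCL10, rose 1.86-fold and IRAK1 rose 1.80-fold. BCL10 and TRAF2 were the other members that rose. RIPK1, a kinase and scaffold of the TNF receptor complex, fell 2.45-fold, from 31.6 ± 0.68 to 12.8 ± 2.56 CPM (edgeR adjusted p = 0.0019). MYD88, the shared adaptor of interleukin-1 and most Toll-like receptors, fell 1.80-fold, from 14.4 ± 0.26 to 7.99 ± 2.27 CPM, and IRAK4 was the third that fell (edgeR adjusted p = 0.018).

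Of 15 further inhibitors 4 rose and 1 fell, with a median of 0.22. TOLLIP, which restrains interleukin-1 receptor signalling, rose 1.82-fold, ZC3H12A, an RNase that degrades inflammatory transcripts, rose 1.66-fold and TNIP2, a partner of A20, rose 1.61-fold. SPATA2 was the fourth that rose (edgeR adjusted p = 0.048). N4BP1 fell 1.76-fold. The deubiquitinase CYLD averaged 39.7 ± 1.59 CPM with BP and 28.99 ± 6.19 CPM with Huaier, not past the threshold (edgeR adjusted p = 0.075).

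Receptors held calls in both directions, with 6 of 14 tested members higher, 3 lower and a median of -0.03. All 6 that rose belong to the TNF receptor family, to which much of this list belongs. CD40 of that family did not pass (edgeR adjusted p = 0.86), and TNFRSF11A and EDAR were not tested. The list was not divided by family beforehand. TNFRSF12A, the receptor for TWEAK, rose 3.17-fold, from 44.2 ± 8.37 to 140 ± 49.8 CPM (SD, n = 3; edgeR adjusted p = 0.00395). NGFR rose 3.06-fold and TNFRSF1B 2.26-fold, and TNFRSF1A, LTBR and TNFRSF21 were the others. IL1R1, the interleukin-1 receptor, fell 1.89-fold, from 114 ± 7.12 to 60.6 ± 10.4 CPM, and IL18R1 and TLR3 also fell (edgeR adjusted p = 0.023 and 0.048), both at under 5 CPM. TLR3 was not called by DESeq2 (adjusted p = 0.082), by limma-voom (0.055), in any of the 6 fits without 1 library (0.055 to 0.22) or once GC content and length were accounted for (0.13).

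Ligand transcripts were scarce. Of 12 ligands 5 were tested, 2 rose and 0 fell (edgeR, also 0 at an unadjusted p under 0.05 and 0 by DESeq2), with a median of 0.50. TNF was at 2.69, 2.61 and 2.83 CPM with BP and 4.54, 11.3 and 4.09 CPM with Huaier (edgeR adjusted p = 0.035). IL1A went from 1.51 ± 0.23 to 2.96 ± 0.83 CPM (edgeR adjusted p = 0.037). Neither rise was called without BP 1, BP 2, BP 3 or BP+Huaier 2, nor with library size alone (0.081 and 0.14), and TNF was not called by limma-voom (0.057).

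Of the 19 tested target genes 6 rose, 2 fell and 11 did not pass, with a median of 0.36. GADD45B, a stress-induced survival factor, went from 24.3 ± 3.27 to 142 ± 129 CPM, with BP+Huaier 2 at 291 CPM (5.86-fold, edgeR adjusted p = 0.011), and its log2 fold change of 2.55 was 1.51 without that library. CXCL8, which encodes interleukin-8, went from 66.2 ± 8.72 to 235 ± 65.8 CPM, a 3.55-fold rise (edgeR adjusted p = 0.0013), NUAK2 rose 2.55-fold, and PLAU, SDC4 and CSF1 were the others. CXCL1, CXCL2 and CXCL3 did not pass (edgeR adjusted p = 0.37, 0.26 and 0.78). CFLAR, an inhibitor of caspase-8, fell 1.40-fold, from 89.0 ± 2.40 to 63.4 ± 2.95 CPM, but its log2 fold change was 0.07 once GC content and length were accounted for. The median of all genes was then 0.13. ICAM1 fell from 0.94 ± 0.33 to 0.20 ± 0.07 CPM (edgeR adjusted p = 0.015), with only 18, 11 and 21 counts in BP and 4, 2 and 3 in BP+Huaier. SOD2 was at 190 ± 7.27 and 188 ± 15.8 CPM. IL6, CCL2, VCAM1 and BCL2A1 had 0 counts in all libraries, which allows up to 0.222 CPM in the library with the highest floor (3 counts, counting error only).

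Leaving out 1 library ended several of these calls, and dropping BP+Huaier 3 added others, with 6 kinases and 11 adaptors and ligases then lower. In that fit 59.8% of all tested genes were called, and 4793 of 15448 were lower. Of the 23 pathway genes named by rule, 12 were called in all 6 such fits, namely BCL3, MAP3K14, MAP3K3, IKBKE, IRAK2, RIPK1, TNFRSF12A, NGFR, TNFRSF1B, IL1R1, CXCL8 and NUAK2. Without BP 2 the other 11 were not called, namely NKRF, IKBKB, CARD10, IRAK1, MYD88, TOLLIP, ZC3H12A, TNIP2, N4BP1, GADD45B and CFLAR (edgeR adjusted p = 0.059 to 0.14). All of these but TOLLIP and GADD45B were also lost without BP 1 (0.065 to 0.14) and without BP+Huaier 2 (0.062 to 0.12). Without BP 3, NKRF, IKBKB, IRAK1, MYD88, ZC3H12A, TNIP2 and CFLAR were lost (0.055 to 0.10), and without BP+Huaier 1 IKBKB, IRAK1 and TNIP2 (0.054 to 0.069). With library size alone, NKRF, CARD10, ZC3H12A and TNIP2 were not called (0.33, 0.054, 0.058 and 0.10).

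Of the called genes outside that rule, BCL10, TNFRSF1A, LTBR and PLAU were called in all 6 fits without 1 library. IRAK4 was lost without BP 1, 2 or 3 (edgeR adjusted p = 0.058 to 0.071), ICAM1 without BP 1, BP 3 or BP+Huaier 2 (0.064 to 0.071) and TRAF2 without BP 2 (0.0502). Dropping any BP library, or BP+Huaier 2, ended the calls of IL18R1, SDC4, CSF1 and TNFRSF21 (0.053 to 0.13). SPATA2 was called in only 1 of the 6, the fit without BP+Huaier 3, and was at 0.074 to 0.19 in the others. With library size alone SPATA2, TNFRSF21 and CSF1 were not called (0.44, 0.14 and 0.052). BCL10, TRAF2, IRAK4, SPATA2, TNFRSF1A, LTBR, TNFRSF21, IL18R1, TLR3, TNF, IL1A, PLAU, SDC4, CSF1, ICAM1, SOD2, REL, CHUK, CYLD and the CXCL1 group were named after their values were seen.

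**Figure D5:**
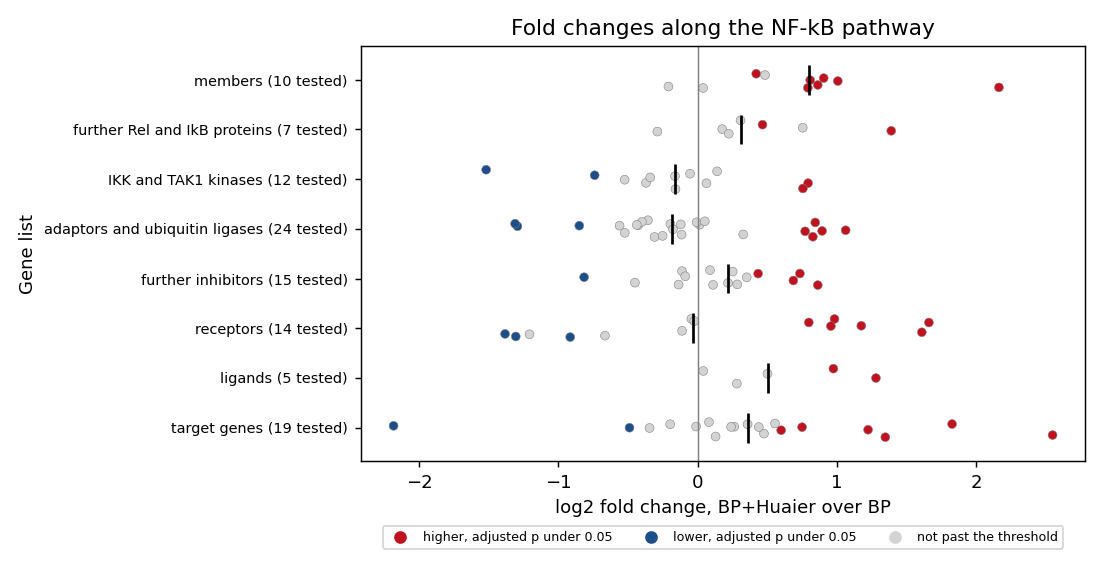
Log2 fold changes of the tested genes in each pathway list, red where higher and blue where lower at an adjusted p under 0.05, with a black bar at the median of each list. Medians were 0.80 for the members and lay between -0.19 and 0.50 for the 7 other lists, in which 27 genes were higher and 11 lower.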

How the data were processed

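The authors deposited 1 table of whole-number read counts per gene for 6 libraries, not normalized. The submitters' processing notes name fastp 0.20.0, HISAT2 2.1.0, featureCounts 1.6.1 and GRCh38. Which annotation was used, and how strand, shared and multiply mapped reads were handled, is not given in the sources used. The column of exon length comes from the same deposited table. Columns were mapped by sample title.

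From 60648 genes, 44 duplicates on chromosome Y without counts were dropped, as were the 3 broken lines of 1 further gene. Symbols came from a table of gene names (99.77% of IDs), then GENCODE release 29, which also gave GC content. The main analysis used edgeR 4.0.16 under R 4.3.3 (filterByExpr by group, TMM, robust quasi-likelihood test, group as the only term, Benjamini-Hochberg over 15022 genes, calls at an adjusted p under 0.05). CPM is TMM scaled, and SE was derived from the test's F value. The biological coefficient of variation common to all genes was 18.1%. Variance between libraries of a group was 3.43 to 69.6 times that of sampling, so none was treated as deposited more than once. Repeat preparations of 1 culture can also exceed sampling variance. The steps were also run on simulated counts, with an outcome that is not given here and is not used as support.

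Alternatives were DESeq2 1.42.0 and its size factors, library size alone, limma-voom (limma 3.58.1) with and without a weight per library, no filter, at least 5 CPM, a replicate block, subtraction of a spline on GC content and exon length, an adjusted p under 0.01, and each library left out in turn. All 10 members are named. Of every other list, up to 3 called genes of at least 5 CPM in each direction are named, and the 5 genes nearest to NFKBIA. Members and lists were chosen with earlier results of these data known. Protein sequences were not used here. Plots used matplotlib 3.10.9 (Python 3.11.15).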

Additional observations from a re-analysis of the deposited data

How the results depend on the processing

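NFKB2, NFKBIB and IER3 kept their direction and their side of the threshold in all 16 alternatives. Members called higher numbered 3 with library size alone, 4 with the replicate block and 3 at an adjusted p under 0.01, in place of 7, and 3 to 8 with 1 library left out. The count of members called lower was 0 in all 16. Genes called higher over the whole table numbered 1051 with library size alone, 4664 with a weight per library, 1357 with the replicate block, 3875 once GC content and length were accounted for and 826 at an adjusted p under 0.01, in place of 2160. Genes called lower numbered 5098 with a weight per library, 1373 with at least 5 CPM and 810 at an adjusted p under 0.01, in place of 2246. With 1 library left out the ranges were 810 to 4452 higher and 909 to 4793 lower. The log2 fold change of NFKB1 reversed to -0.22 with library size alone and to -0.049 with at least 5 CPM, and that of CFLAR to 0.073 once GC content and length were accounted for. In these settings, in the same order, the median of all tested genes was -0.28, -0.009 and 0.13. The cause of the reversals was not tested. Same-numbered libraries correlated at 0.01, -0.06 and -0.28 in their deviations from the group means, and differently numbered ones at -0.26 to 0.26. Whether the replicate numbers pair the samples cannot be decided from this, because the libraries also differed along GC content. The block ended the calls of RELA, NFKBIA and NFKBIE (edgeR adjusted p = 0.12, 0.053 and 0.0504). No fit had a separate spread for each group other than through library weights, which ran from 0.14 for BP+Huaier 3 to 4.27 for BP 1.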
